A study of Mus musculus with 15 samples.

Results

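Activins and transforming growth factor beta (TGF-beta) are secreted dimers of the same ligand family, and 7 genes of that family and of its follistatin antagonists are described here in mouse heart tissue. They are Inhbb and Inhba, which encode the beta B and beta A subunits of activins and inhibins, Fst and Fstl3, which encode follistatin and follistatin-like 3, and Tgfb1, Tgfb2 and Tgfb3, which encode the 3 TGF-beta ligands. The genes were chosen by name, and all 7 are among the 16658 genes of the deposited table and among the 13541 that passed the filter on low values. The choice was made with results of these libraries known. For Inhbb, the large difference of untreated from sham and rivaroxaban hearts was known when it was chosen, so its levels are given as a description with no test. The other 6 genes were tested across all genes, and since they were also chosen with results known, their calls are not independent evidence.

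The libraries came from hearts of male C57BL/6 mice aged 8 to 10 weeks. The tissue taken is described as the infarct and the muscle around it, which is not read here as saying that sham hearts had an infarct. The groups were rivaroxaban, an inhibitor of coagulation factor Xa given at 3 mg/kg for 7 days (2 libraries), dabigatran, an inhibitor of thrombin (factor IIa) given at 10 mg/kg for 7 days (2 libraries), activated protein C (aPC), an anticoagulant protease given at 1 mg/kg 30 min before surgery (2 libraries), untreated (2 libraries) and sham (3 libraries). Per the labels, the left anterior descending coronary artery was tied for 90 min and then reopened for 24 h, and the drugs were resumed 2 h after surgery. That description covers all mice and is not given by group, so untreated hearts are named here as in their label. Each library has its own number, but the labels do not say that each is a separate mouse, so p-values measure only the spread between these libraries.

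Activins signal through activin type II and type I receptors to Smad2 and Smad3, as TGF-beta does through its own receptors, while bone morphogenetic proteins (BMPs) act mainly through Smad1 and Smad5. Follistatin and follistatin-like 3 bind activins outside the cell and keep them from their receptors. TGF-beta is secreted in a latent complex and is released by integrins, thrombospondin and proteases, and in the injured heart it is known for its effect on fibroblasts and on extracellular matrix.

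Reads on listed genes ran from 26203566 to 36135006 per library, and 3 reads of a gene lie between -2.83 and -2.41 in log2 CPM, the log2 of reads per gene scaled to the size of the library. The 2 untreated libraries differed most from each other, with an SD over genes of the log2 difference of 0.792, against 0.313 to 0.483 between other libraries of the same group. The abundant transcript Gm42418 took 6.78% and 6.73% of reads in the aPC libraries and 0.997% to 2.09% in the rest. The 5 listed cardiomyocyte markers summed to 36168 to 73620 CPM in the 11 libraries. In bulk tissue, fewer cells of a type and less RNA per cell cannot be told apart.

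The RefSeq promoter table of build GRCm38.p6 holds 5 of the 7 genes, which were not all highest in the same hearts. The 150 bases before each start are printed 5′ to 3′ on the strand of the gene, to show how these starts compare. Capitals mark matches, on either strand, to the TATA box TATAAA, the GC box GGGGCGG, the AP-1 site TGANTCA, the E-box CACGTG and the Smad binding element GTCTAGAC.
Inhbb, chr1:119422249-119422398, minus strand: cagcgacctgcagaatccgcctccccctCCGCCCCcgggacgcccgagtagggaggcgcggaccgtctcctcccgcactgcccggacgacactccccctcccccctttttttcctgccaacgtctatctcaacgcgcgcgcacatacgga
Inhba, chr13:16011701-16011850, plus strand: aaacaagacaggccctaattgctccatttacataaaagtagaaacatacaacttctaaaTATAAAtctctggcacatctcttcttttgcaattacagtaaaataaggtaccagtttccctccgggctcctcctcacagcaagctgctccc
Fstl3, chr10:79777124-79777273, plus strand: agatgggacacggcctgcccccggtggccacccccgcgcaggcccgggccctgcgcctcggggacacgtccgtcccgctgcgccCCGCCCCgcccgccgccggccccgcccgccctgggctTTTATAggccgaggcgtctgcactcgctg
Tgfb1, chr7:25686852-25687001, plus strand: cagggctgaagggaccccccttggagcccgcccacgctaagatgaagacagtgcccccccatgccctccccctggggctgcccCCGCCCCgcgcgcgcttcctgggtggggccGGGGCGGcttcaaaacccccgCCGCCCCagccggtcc
Tgfb2, chr1:186705990-186706139, minus strand: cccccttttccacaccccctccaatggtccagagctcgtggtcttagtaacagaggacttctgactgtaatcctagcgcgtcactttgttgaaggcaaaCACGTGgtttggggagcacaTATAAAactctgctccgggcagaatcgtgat

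TATAAA lies 29 bases before the start of Fstl3, 31 before that of Tgfb2 and 91 before that of Inhba, and 7.57% of all 32851 promoters of the table hold it in the same window. For Fstl3 the match is on the opposite strand and is printed as TTTATA, while those of Tgfb2 and Inhba are on the strand of the gene. Inhbb and Tgfb1 have no TATAAA in this window. The GC box, in 17.9% of all promoters, occurs 1 time for Inhbb, 122 bases before the start, 1 time for Fstl3, at 66 bases, and 3 times for Tgfb1, at 67, 37 and 16 bases. Tgfb2 holds CACGTG 51 bases before its start, as 4.30% of promoters do within the window. TGANTCA (4.24% of promoters) and GTCTAGAC (0.0731%) match none of the 5 windows. These are matches of letters, which were not set against any binding data.

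Inhbb lies on chr1:119415465-119422248 of mm10, minus strand, in 2 exon blocks of 4255 bases in GENCODE release M21. Its level was 2.00 and 2.11 log2 CPM in rivaroxaban hearts, 4.35 and 4.32 in dabigatran hearts, 3.04 and 2.29 in aPC hearts, 7.68 and 6.14 in untreated hearts, and 2.39, 2.22 and 2.30 in sham hearts. Both untreated libraries lay above all others, both dabigatran libraries came next, and the aPC and sham libraries overlapped. Over all genes tested, untreated libraries lay above all sham libraries for 21.4%, and dabigatran libraries did for 30%. In reads, untreated replicates 17 and 19 had 6660 and 1995, against 141 to 175 in sham libraries.

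The mean of Inhbb was 4.61 log2 units higher in untreated than in sham hearts. That difference was 3.83 without untreated replicate 17 and 5.38 without untreated replicate 19. Against untreated hearts, the difference of means was -4.85 with rivaroxaban, -2.57 with dabigatran and -4.24 with aPC. Against sham hearts, it was -0.25 with rivaroxaban, 2.03 with dabigatran and 0.36 with aPC. The order of the means was thus rivaroxaban (2.05 ± 0.08 log2 CPM, SD, n = 2), sham (2.30 ± 0.08, n = 3), aPC (2.67 ± 0.53, n = 2), dabigatran (4.34 ± 0.02, n = 2) and untreated (6.91 ± 1.09, n = 2).

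**Figure D1:**
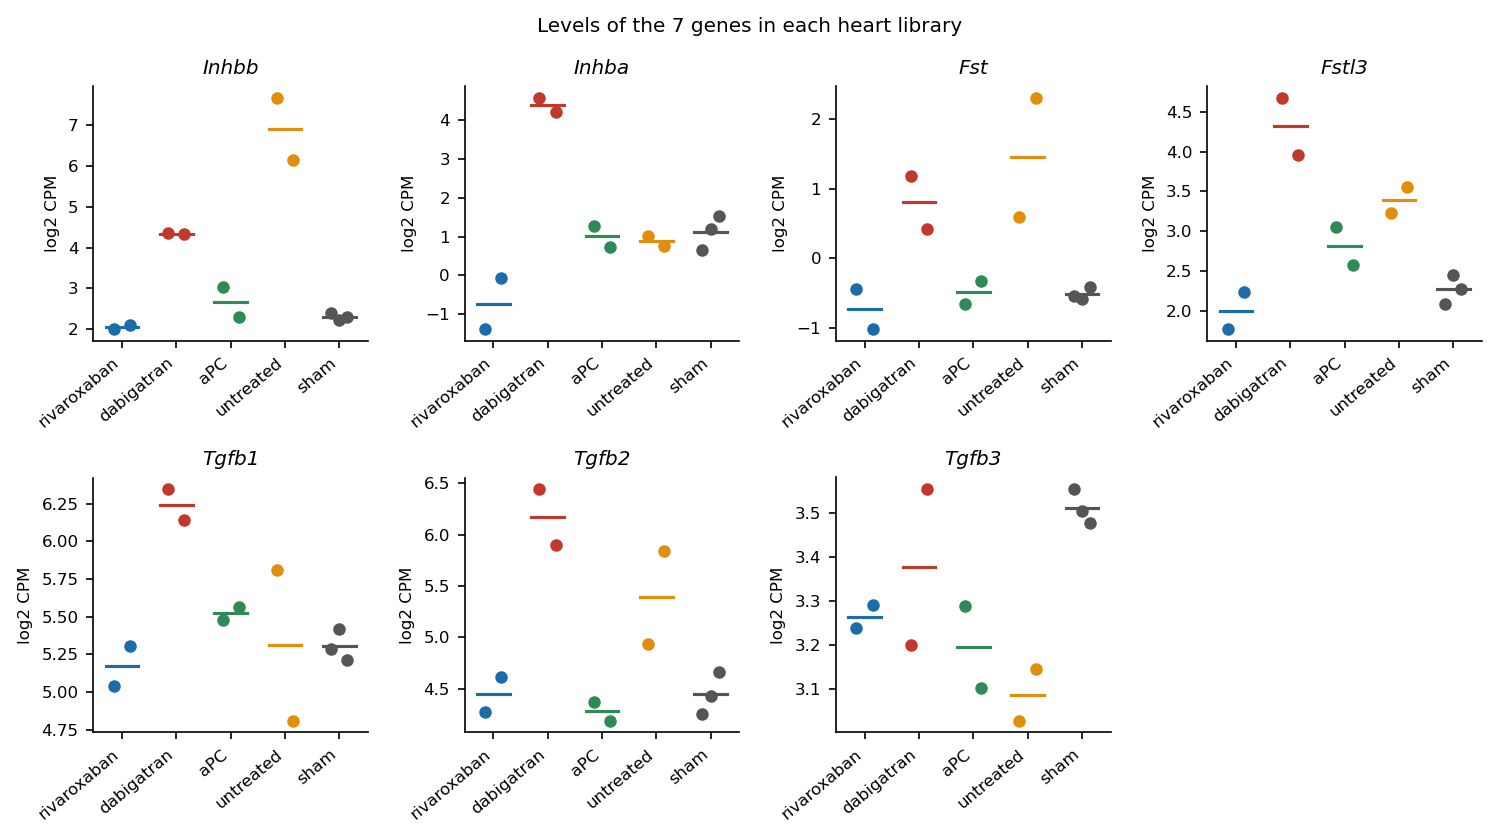
Level of each of the 7 genes in log2 CPM (vertical axis, own scale per gene) in the 11 libraries. Points are libraries, and short lines are group means. Inhbb is highest in the untreated pair, at 7.68 and 6.14, and Inhba in the dabigatran pair, at 4.57 and 4.21, while the Tgfb3 panel spans only 3.03 to 3.55.

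Inhba (chr13:16011851-16031621, plus strand, 5 exon blocks, 6390 bases) had another pattern. It stood at -1.38 and -0.07 log2 CPM in rivaroxaban hearts, 4.57 and 4.21 in dabigatran hearts, 1.28 and 0.73 in aPC hearts, 1.03 and 0.76 in untreated hearts, and 0.65, 1.20 and 1.53 in sham hearts. The dabigatran libraries had 625 and 735 reads and every other library had at most 82. Over all genes tested, dabigatran libraries lay above both untreated ones for 27%, all sham ones for 30% and both rivaroxaban ones for 36.3%. Both aPC libraries lay below both dabigatran ones for 36.1%. The 2 rivaroxaban libraries, with 9 and 31 reads, were the lowest of the 11. Rivaroxaban libraries lay below all sham ones for 16.4% of all genes tested, and aPC libraries above both rivaroxaban ones for 33.3%.

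In limma's test, Inhba was higher in dabigatran than in untreated hearts by 3.50 ± 0.45 log2 units (SE, adjusted p = 0.0014). It was also higher with dabigatran than in sham hearts, by 3.26 ± 0.41 (adjusted p = 0.00138), and than with rivaroxaban, by 5.11 ± 0.45 (adjusted p = 0.000261). In aPC hearts it was lower than in dabigatran hearts, with a log2 fold change of -3.38 ± 0.45 (adjusted p = 0.00148). All 4 of these calls were kept when any 1 library was left out. The call against untreated was lost when libraries were weighted by their spread around the group mean (adjusted p = 0.113).

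No other comparison of Inhba passed in the unweighted fit of the deposited values over all libraries. Its log2 fold change was -1.61 ± 0.45 in rivaroxaban against untreated hearts (adjusted p = 0.0516), and it passed under median centring (0.0493) and quantile normalization (0.0252). The rivaroxaban libraries lay below both untreated ones, as they did for 27.4% of all genes tested. In untreated against sham hearts it was -0.24 ± 0.41 (adjusted p = 0.72), where the libraries overlapped. In aPC against rivaroxaban hearts it was 1.73 ± 0.45 (adjusted p = 0.0871), and it passed without untreated replicate 17 or 19 (0.038 and 0.0387) as well as under quantile normalization (0.0486) and library weights (0.0145). In rivaroxaban against sham hearts it was -1.85 ± 0.41 (adjusted p = 0.475, and 0.0444 with library weights).

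Per kilobase of exon, Inhba made up 5.12% and 12.2% of the summed level of the 2 subunit genes in rivaroxaban hearts. Its share was 43.7% and 38.0% in dabigatran hearts, 16.2% and 18.04% in aPC hearts, 0.636% and 1.51% in untreated hearts, and 16.3%, 24.4% and 27.9% in sham hearts. The untreated libraries had the lowest shares and the dabigatran libraries the highest, and no library had more Inhba than Inhbb per kilobase. That rests on the exon lengths used, since dabigatran replicate Dabi-202 had more reads of Inhba (625) than of Inhbb (536). The summed subunit level was 7.56 to 8.48 CPM per kb with dabigatran and 16.8 and 48.5 in untreated hearts, against 0.976 to 2.29 in all other libraries.

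The summed level of both subunit genes, divided by that of both antagonist genes per kilobase, was 11.8 and 2.87 in the untreated libraries. In the other 9 libraries this ratio lay between 0.539 and 1.15. The dabigatran libraries, at 0.776 and 1.15, overlapped the sham libraries, at 0.613 to 0.789, although both sums were higher with dabigatran. These ratios hold Inhbb, so they are descriptions and were not tested.

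**Figure D2:**
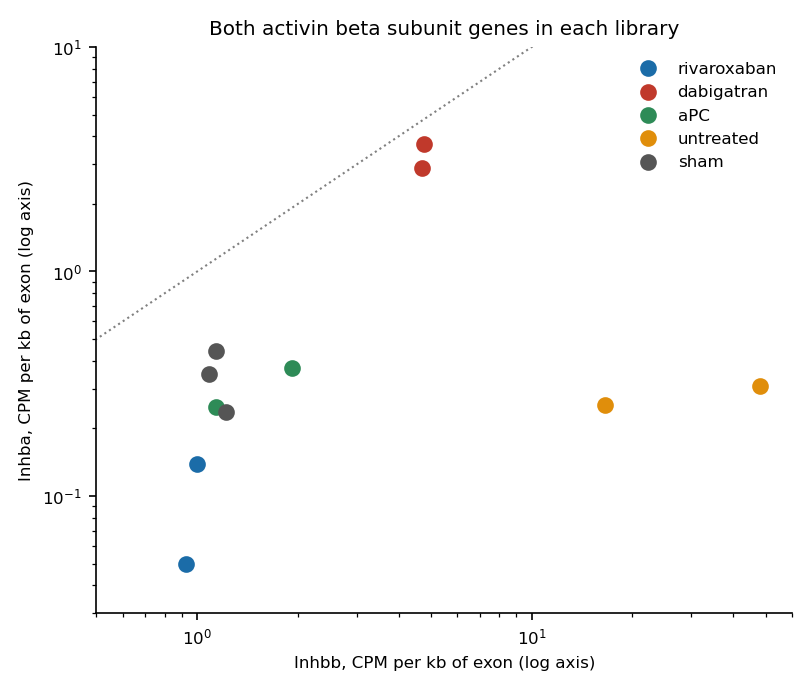
Inhba (vertical axis) against Inhbb (horizontal axis) in CPM per kb of exon, both on log axes, 1 point per library, and the dotted line marks equal levels. The untreated pair lies far to the right at Inhba levels like those of sham hearts, the dabigatran pair lies high and close to the line, and no point lies above the line.

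Fst (chr13:114452290-114458951, minus strand, 3 exon blocks, 4589 bases) was the least abundant antagonist, with 14 to 138 reads per library. It stood at -0.43 and -1.01 log2 CPM in rivaroxaban hearts, 1.18 and 0.42 in dabigatran hearts, -0.65 and -0.32 in aPC hearts, 0.60 and 2.30 in untreated hearts, and -0.54, -0.58 and -0.41 in sham hearts. The untreated and dabigatran libraries lay above all the rest and overlapped each other. Untreated libraries lay above all sham libraries for 21.4% of all genes tested, and dabigatran libraries did for 30%. Fst passed the filter on low values only through the 4 untreated and dabigatran libraries, since it was below 0 log2 CPM in the other 7. Its calls are therefore not support for a difference. Untreated replicate 19 held the highest value, where replicate 17 had been the one with more Inhbb.

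Fst was called higher in untreated than in sham hearts by 1.96 ± 0.48 (adjusted p = 0.0321). It was called lower in rivaroxaban than in untreated hearts (log2 fold change -2.17 ± 0.53, adjusted p = 0.0338) and lower in aPC than in untreated hearts (-1.93 ± 0.53, adjusted p = 0.0341). Since the filter let Fst in only through libraries where it was high, these calls are not support for a difference. The first of these calls was lost without untreated replicate 19 or any 1 sham library (adjusted p from 0.0669 to 0.185), and the rivaroxaban call also without either rivaroxaban library (0.0557 to 0.191 over all 6 losses). The aPC call was lost without untreated replicate 19, any 1 sham library, either aPC library or rivaroxaban replicate Riva-313. With all libraries, limma's voom on the recovered reads lost the rivaroxaban call (adjusted p = 0.0534) and the aPC call (0.0599). Quantile normalization lost the aPC call (adjusted p = 0.0525).

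With dabigatran, Fst was 1.31 ± 0.48 against sham hearts (adjusted p = 0.0843), 1.52 ± 0.53 against rivaroxaban hearts (adjusted p = 0.0619) and -0.65 ± 0.53 against untreated hearts (adjusted p = 0.426), none of them a call. The comparisons with sham and rivaroxaban hearts passed without untreated replicate 17 or 19 (adjusted p from 0.0112 to 0.0194), and so did the lower value of aPC against dabigatran hearts (0.0237 and 0.0272, against 0.109 with all libraries). The comparison with untreated hearts passed without untreated replicate 17 (0.0272) and turned to 0.20 without replicate 19.

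Fstl3 (chr10:79777272-79782630, plus strand, 6 exon blocks, 2445 bases) exceeded Fst per kilobase in every group. Its level was 1.77 and 2.23 log2 CPM in rivaroxaban hearts, 4.68 and 3.95 in dabigatran hearts, 3.05 and 2.58 in aPC hearts, 3.23 and 3.56 in untreated hearts, and 2.08, 2.45 and 2.27 in sham hearts. Both dabigatran libraries were above both untreated ones, and these were above both aPC libraries, which were above all sham libraries. Each step alone was common, holding for 27%, 27.6% and 24% of all genes tested. The neighbours in this order did not pass limma's test against each other. Adjusted p was 0.0655 for dabigatran against untreated, 0.186 for aPC against untreated and 0.335 for aPC against sham.

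Across larger steps of that order, Fstl3 was higher in dabigatran than in sham hearts by 2.05 ± 0.27 (adjusted p = 0.00168) and than in rivaroxaban hearts by 2.32 ± 0.30 (adjusted p = 0.000836), and both calls were kept without any 1 library. In aPC hearts it was lower than in dabigatran hearts (-1.50 ± 0.30, adjusted p = 0.00756), a call lost without dabigatran replicate Dabi-202 or aPC replicate aPC-792 (0.0629 and 0.0699). It was higher in untreated than in sham hearts by 1.13 ± 0.27 (adjusted p = 0.0304), lost without untreated replicate 19 or any 1 sham library (0.0684 to 0.116). It was lower in rivaroxaban than in untreated hearts (-1.40 ± 0.30, adjusted p = 0.024), lost without untreated replicate 19 or either rivaroxaban library (0.0672 to 0.181).

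Tgfb1 (chr7:25687002-25705077, plus strand, 8 exon blocks, 5042 bases) was the ligand with the highest mean level per kilobase in every group but untreated, where Inhbb was higher. It stood at 5.04 and 5.31 log2 CPM in rivaroxaban hearts, 6.35 and 6.14 in dabigatran hearts, 5.48 and 5.57 in aPC hearts, 5.81 and 4.81 in untreated hearts, and 5.29, 5.42 and 5.21 in sham hearts. The dabigatran libraries were above all others, and the untreated pair spanned all the rest. Dabigatran libraries lay above all sham libraries for 30% of all genes tested, and above both untreated ones for 27%.

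Tgfb1 was higher in dabigatran than in untreated hearts by 0.93 ± 0.26 (adjusted p = 0.0414), than in sham hearts by 0.94 ± 0.24 (adjusted p = 0.0242) and than in rivaroxaban hearts by 1.07 ± 0.26 (adjusted p = 0.0165). With 1 library left out, the call against untreated was kept only without untreated replicate 17 and lost without any 1 of the other 10 libraries. With all libraries, it was also lost under median centring (adjusted p = 0.0524). The call against sham was lost without dabigatran replicate Dabi-202 or any 1 sham library (0.0526 to 0.197), and that against rivaroxaban without dabigatran replicate Dabi-202 or either rivaroxaban library (0.051 to 0.126).

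In untreated against sham hearts Tgfb1 differed by 0.00 ± 0.24 (adjusted p = 0.997), and the value turned to -0.50 without untreated replicate 17 (adjusted p = 0.0313). Without that library aPC hearts also passed against untreated hearts (adjusted p = 0.00818, against 0.572 with it), and without either untreated library they passed against dabigatran hearts (0.00358 and 0.00367, against 0.0741).

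Tgfb2 (chr1:186622792-186705989, minus strand, 10 exon blocks, 5791 bases) stood at 4.28 and 4.62 log2 CPM in rivaroxaban hearts, 6.44 and 5.90 in dabigatran hearts, 4.37 and 4.19 in aPC hearts, 4.94 and 5.84 in untreated hearts, and 4.26, 4.43 and 4.66 in sham hearts. The dabigatran libraries were highest and the untreated libraries next, with no overlap. Dabigatran libraries lay above both untreated ones for 27% of all genes tested, and untreated libraries above all sham ones for 21.4%. Rivaroxaban, aPC and sham libraries overlapped one another.

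Tgfb2 was higher in dabigatran than in sham hearts by 1.72 ± 0.26 (adjusted p = 0.00282), lost without dabigatran replicate Dabi-202 (0.0525), and than in rivaroxaban hearts by 1.72 ± 0.29 (adjusted p = 0.00297). In aPC hearts it was lower than in dabigatran hearts (-1.89 ± 0.29, adjusted p = 0.00264) and than in untreated hearts (-1.11 ± 0.29, adjusted p = 0.0283). The last call was lost without untreated replicate 19 or either aPC library (0.0838 to 0.163), and the calls of dabigatran against rivaroxaban hearts and of aPC against dabigatran hearts were kept without any 1 library.

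In untreated hearts Tgfb2 exceeded sham hearts by 0.94 ± 0.26 (adjusted p = 0.047). With 1 library left out, that call was lost without any 1 of 8 libraries, and kept only without a dabigatran library or untreated replicate 17. With all libraries, it was also lost under limma's voom on the recovered reads (adjusted p = 0.0531). A pair of comparisons that missed the threshold passed without 1 untreated library. The first was rivaroxaban against untreated hearts (-0.94 ± 0.29, adjusted p = 0.0691, and 0.00229 without replicate 17), and the other was dabigatran against untreated hearts (0.78 ± 0.29, adjusted p = 0.0978, and 0.0132 without replicate 19).

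Tgfb3 (chr12:86056745-86079041, minus strand, 7 exon blocks, 3383 bases) varied least of the 7. It stood at 3.24 and 3.29 log2 CPM in rivaroxaban hearts, 3.20 and 3.55 in dabigatran hearts, 3.29 and 3.10 in aPC hearts, 3.03 and 3.15 in untreated hearts, and 3.55, 3.50 and 3.48 in sham hearts. It passed in none of the 10 comparisons, under any setting tried. The nearest was untreated against sham hearts, at -0.43 ± 0.17 (adjusted p = 0.121), where both untreated libraries lay below all sham libraries, as they did for 22.1% of all genes tested.

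Per kilobase, Tgfb2 made up 26.5% and 28.3% of the summed level of the 3 TGF-beta genes with rivaroxaban, 44.3% and 37.1% with dabigatran, 23.3% and 20.9% with aPC, 28.2% and 54.9% in untreated hearts, and 22.7%, 23.9% and 29.1% in sham hearts. The summed level itself was 33.8 and 27.7 CPM per kb with dabigatran and 12.6 to 18.8 in all other libraries. Untreated replicates 17 and 19 had nearly the same sum, 18.8 and 18.1, made of different ligands, with Tgfb1 at 59.1% in replicate 17 and 30.8% in replicate 19.

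Set out by comparison, the 6 tested genes had these calls. In dabigatran against sham hearts 4 were higher and 0 lower, where 18.5% of all genes were called (11.7% higher and 6.82% lower), and their median log2 fold change was 1.52 with 0.01 over all genes. In dabigatran against rivaroxaban hearts 4 were higher and 0 lower, where 23.3% of all genes were called (14% higher and 9.39% lower). In aPC against dabigatran hearts 3 were lower and 0 higher, where 21.5% were called (12.3% lower and 9.21% higher).

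In dabigatran against untreated hearts 2 were higher (Inhba and Tgfb1) and 0 lower, where 13.8% of all genes were called (8.71% higher and 5.08% lower), and the median log2 fold change was 0.85 with 0.05 over all genes. In untreated against sham hearts 3 were higher (Fst, Fstl3 and Tgfb2) and 0 lower, where 10.6% were called (5.07% higher and 5.52% lower), with medians of 0.47 and -0.03. In rivaroxaban against untreated hearts 2 were lower (Fst and Fstl3), where 8.47% were called (4.45% lower and 4.02% higher), with medians of -1.17 and 0.02. In aPC against untreated hearts 2 were lower (Fst and Tgfb2), where 17.6% were called (10.2% lower and 7.44% higher), with medians of -0.23 and 0.07. Fst entered these counts and medians only through the untreated and dabigatran libraries, where it was high, so its calls are not support for a difference. The comparisons with untreated hearts share the 2 untreated libraries, so the values set side by side here are not independent of each other. With library weights all 9 of these calls that involve untreated hearts were lost (adjusted p from 0.113 to 0.241), and in fits of only the 2 groups 8 were lost (0.0596 to 0.274) and that of Inhba with dabigatran was kept.

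No call was made for the 6 genes in rivaroxaban against sham, aPC against sham or aPC against rivaroxaban hearts, where 0%, 1.17% (0.126% higher and 1.05% lower) and 1.54% (0.207% higher and 1.33% lower) of all genes were called. In rivaroxaban against sham hearts no gene at all passed limma's adjusted threshold, while 761 had an unadjusted p under 0.05. Limma's voom on the recovered reads called 0 genes there, and library weights called 198. The 95% interval of Fst there ran from -1.28 to 0.86 and that of Fstl3 from -0.87 to 0.34.

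**Figure D3:**
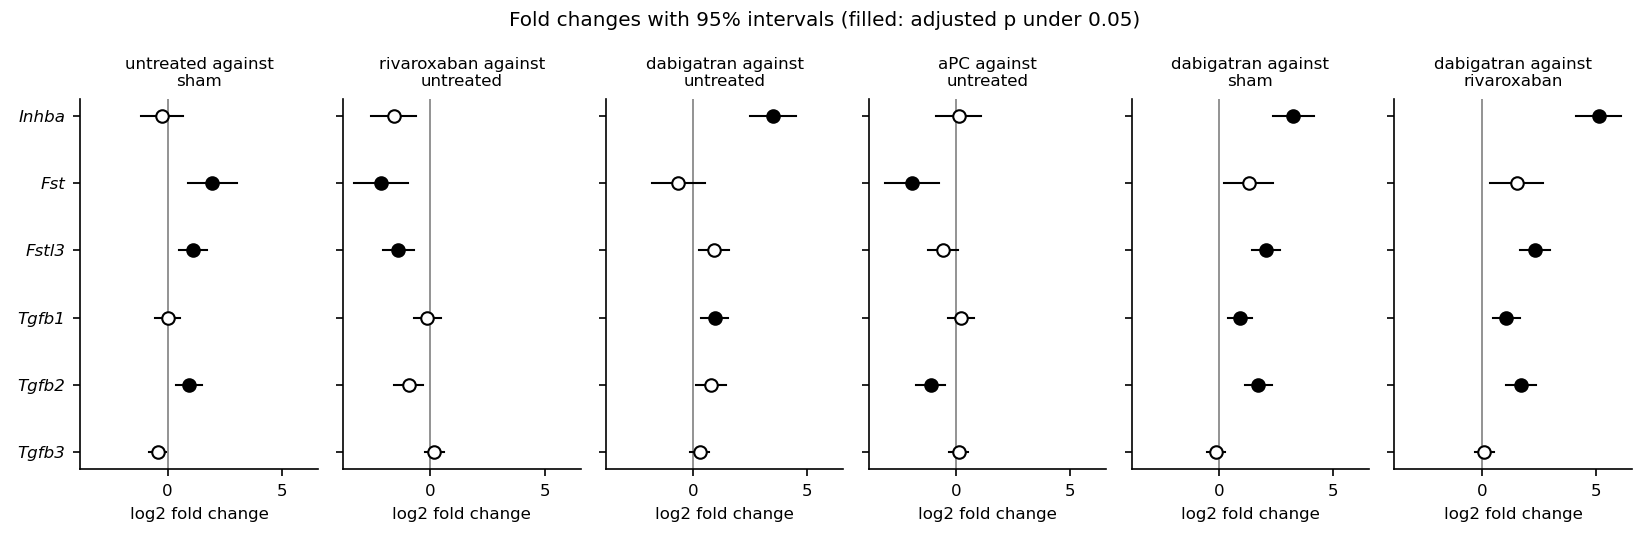
Log2 fold changes (horizontal axis) of the 6 tested genes in 6 comparisons, each named with the group on top of the fold first, with 95% intervals from limma. Filled points passed an adjusted p of 0.05. Those of Fst are not support for a difference, since it passed the filter on low values only through untreated and dabigatran libraries. Inhba stands furthest right in all 3 dabigatran panels, at 3.50, 3.26 and 5.11. Tgfb3 passed in no panel and lies furthest from 0 in untreated against sham hearts, at -0.43.

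The rest of the pathway was described with a list of 89 genes by role, of which 82 were in the table and 73 were tested. The list was written with earlier results of these data known. A share called above that of all genes, here or below, is therefore not evidence about the pathway. In untreated against sham hearts 9 rose and 11 fell (27.4%, with 10.6% over all genes), and the list's median log2 fold change was 0.11, with -0.03 over all genes. Bmp4, a BMP ligand, was higher by 2.13 ± 0.43 (adjusted p = 0.0168), as were Smad1, the BMP transducer, by 1.27 ± 0.20 and Smad6, an inhibitory Smad, by 0.98 ± 0.26. Tgfbr2, the type II TGF-beta receptor, was higher by 0.73 ± 0.15 and Thbs1, thrombospondin 1, by 2.18 ± 0.39. The receptor gene Acvrl1 fell (-0.71 ± 0.15), and so did Itgb6, the beta subunit of an integrin that releases latent TGF-beta (-2.36 ± 0.38). Of the 4 other secreted antagonists tested, 3 fell and 0 rose. These were Lefty1 (-1.45 ± 0.28), Fstl1 (-0.85 ± 0.15) and Chrd (-0.81 ± 0.23).

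Among the 18 target genes of the list, 3 rose and 3 fell in untreated hearts. Cdkn1a, the cell cycle inhibitor p21, was higher by 3.27 ± 0.58, while the collagen genes Col3a1 (-2.71 ± 0.51) and Col1a1 (-1.89 ± 0.39) and the collagen crosslinker Loxl2 (-1.27 ± 0.24) fell. Of the 17 genes that the naming rule took in this comparison, 4 were still called without sham replicate 006, 9 without untreated replicate 19, and 10 and 11 without sham replicates 003 and 007.

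In dabigatran against sham hearts 16 pathway genes rose and 6 fell (30.1%, with 18.5% over all genes), and the list's median was 0.11. The targets supplied 6 of the rises and none of the falls. Tnc, tenascin C, was higher by 3.67 ± 0.61 (adjusted p = 0.00412), Tgfbi by 1.88 ± 0.27 and the transcription factor gene Snai1 by 1.28 ± 0.24. Of the genes of latency and activation 6 rose and 2 fell, among them Thbs1 at 2.61 ± 0.39, the latent TGF-beta binding protein gene Ltbp2 at 1.82 ± 0.37 and Lrrc32, which encodes a cell surface carrier of latent TGF-beta, at 1.07 ± 0.19. Of the intracellular inhibitors 3 rose and 0 fell, among them Tgif1 at 1.52 ± 0.30 and Pmepa1 at 0.81 ± 0.12. Of the 16 genes that the naming rule took, 6 were still called without dabigatran replicate Dabi-202 and at least 11 without any other single library.

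Against untreated hearts, dabigatran hearts had 12 pathway genes higher and 6 lower (24.7%, with 13.8% over all genes), and the list's median was 0.15. Ltbp2 was higher by 2.74 ± 0.41 (adjusted p = 0.00274), Tnc by 3.70 ± 0.67, Tgfbi by 1.76 ± 0.30 and Postn, periostin, by 2.12 ± 0.46. Bmp4 (-2.27 ± 0.47), Smad1 (-0.89 ± 0.22) and Tgfbr2 (-0.93 ± 0.16) fell. Of the 18 genes named by rule, 6 were still called without dabigatran replicate Dabi-202, and 11 without dabigatran replicate Dabi-204 or without untreated replicate 19.

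In rivaroxaban against untreated hearts 5 pathway genes rose and 13 fell (24.7%, with 8.47% over all genes), and the list's median was -0.27. The intracellular inhibitors gave 4 of the falls and no rise, with Pmepa1 at -1.06 ± 0.14 (adjusted p = 0.00393), Skil at -1.09 ± 0.21, Smad6 at -1.29 ± 0.29 and Smad7 at -1.04 ± 0.25. Thbs1 (-2.98 ± 0.43), the protease gene Furin (-1.01 ± 0.16) and Cdkn1a (-3.19 ± 0.64) fell, while Col3a1 was higher by 2.55 ± 0.55. Of the 17 genes named by rule, 1 was still called without rivaroxaban replicate Riva-313, 2 without rivaroxaban replicate Riva-319, 9 without untreated replicate 19 and 11 without sham replicate 003.

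In aPC against untreated hearts 5 pathway genes rose and 18 fell (31.5%, with 17.6% over all genes), and the list's median was -0.24. Smad1 fell, at -1.53 ± 0.22 (adjusted p = 0.00332), and so did Smad7 (-1.42 ± 0.25) and Thbs1 (-2.40 ± 0.43), while Itgb6 was higher by 2.13 ± 0.42. Of the 19 genes named by rule, 1 was still called without aPC replicate aPC-792, 10 without aPC replicate aPC-791 and 11 without untreated replicate 19. Against sham hearts, rivaroxaban hearts had no pathway gene called, and aPC hearts had 1 of 73, with 1.17% called over all genes. That gene was Bmp1, a protease of the BMP-1 and tolloid family, at -0.72 ± 0.13 (adjusted p = 0.0275), lost without any 1 rivaroxaban, aPC or sham library. With library weights the pathway calls dropped to 0 in untreated against sham, rivaroxaban against untreated and dabigatran against untreated hearts and to 1 in aPC against untreated hearts.

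**Figure D4:**
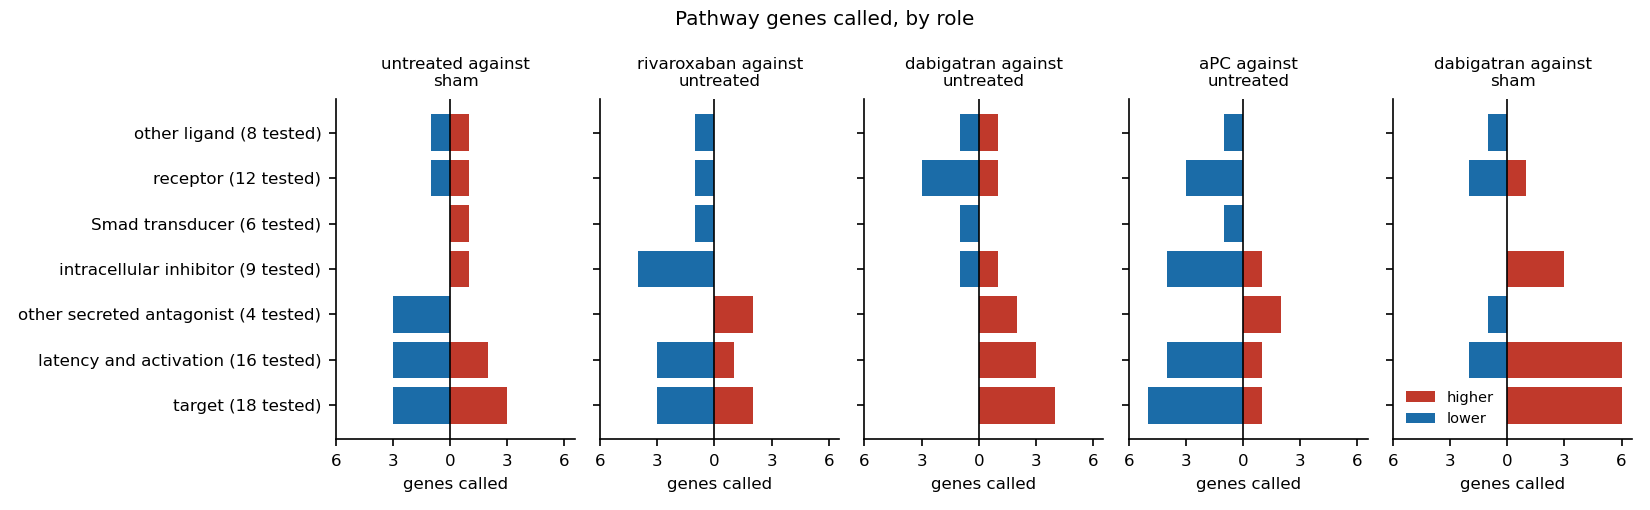
Number of pathway genes called higher (right) and lower (left) in 5 comparisons, by role, with the number tested in each role. In dabigatran against sham hearts 6 targets and 6 genes of latency and activation are higher, and in rivaroxaban against untreated hearts 4 intracellular inhibitors are lower.

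The genes whose log2 levels followed each member most closely over the 11 libraries were sought among 11445 genes by Pearson's r, as a description. The libraries fall into 5 groups and share them between genes, so they are not independent points. Closest to Inhbb were Por, which encodes cytochrome P450 oxidoreductase (r = 0.98), Cemip2 (0.97), the protease gene Adamts9 (0.97), Lpin3 (0.95) and Cnbd2 (0.95). Closest to Inhba were Glipr2 (0.98), the interleukin 1 beta gene Il1b (0.98) and the chemokine gene Ccl7 (0.97), whose means with dabigatran were 5.16, 5.51 and 6.09 log2 CPM, against 3.30, 2.43 and 3.73 in sham hearts.

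Fstl3 was followed by Grwd1 (0.99), the translation factor gene Eif6 (0.99) and the calprotectin gene S100a8 (0.98), and Fst by Ppp1r15b, Taf4b and Senp2 (each 0.97). Tgfb2 was followed by Llph, Mybbp1a and Fosl1 (each 0.98), and Tgfb1 by Ankrd49 (0.97), Tnfaip1 (0.96) and Slc35g2 (0.96). The values for Tgfb3 were lower, with Mrc2 at 0.90, Loxl2 at 0.89 and the collagen gene Col16a1 at 0.87.

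Markers of blood cells moved with several of these results. The 8 neutrophil markers summed to 17.7 to 41.2 CPM with rivaroxaban, 581 to 1019 with dabigatran, 41.3 to 107 with aPC, 105 to 157 in untreated hearts and 31.4 to 48.7 in sham hearts. Ly6g, which defines the type, had 0 reads in every rivaroxaban and sham library. The 7 markers of monocytes and recruited macrophages summed to 232 to 284 CPM with rivaroxaban, 677 to 728 with dabigatran, 435 to 516 with aPC, 190 to 234 in untreated and 309 to 451 in sham hearts. Both sums were thus highest in the hearts where Inhba, Fstl3, Tgfb1 and Tgfb2 were highest. The neutrophil sum had its lowest mean with rivaroxaban. The monocyte sum had its lowest mean in untreated hearts, where the means of Fstl3 and Tgfb2 were higher than in sham hearts.

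The 7 resident macrophage markers summed to 178 to 192 CPM with dabigatran and to 136 to 289 CPM in the other libraries, so those groups overlapped. The 6 platelet markers summed to 50.7 to 67.0 CPM with dabigatran and 19.4 to 38.1 CPM elsewhere. The 6 fibroblast markers summed to 843 to 1241 CPM with dabigatran and 965 to 1360 in untreated hearts, against 1482 to 1692 in the other libraries. The 5 cardiomyocyte markers summed to 36168 to 38179 CPM with dabigatran, below every other library. The part of these cells in the levels of the 7 genes was not tested.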

How the data were processed

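Messenger RNA of mouse heart tissue was sequenced in 15 labelled samples, and the deposited table holds 11 of them. The other 4 were not analysed here. The values are log2 CPM as deposited by the authors, with TMM scaling between libraries according to the table's name. Build mm10 and the tools STAR, edgeR, Trim Galore, bcl2fastq and FastQC are listed per the submitters' processing notes. Not given in the sources used here are versions, the counter, its strand setting and any filter. Taking the lowest value off the CPM gave whole reads for 100% of values, to within 0.05 of a read.

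A gene was tested when it reached 0 log2 CPM in at least 3 libraries. The test was two-sided limma-trend (R 4.3.3, limma 3.58.1) in 1 fit of 5 group means over 11 libraries, with p-values adjusted by Benjamini-Hochberg over all 13541 genes and calls made under 0.05. All groups share 1 estimate of the spread, which runs low for the untreated pair. A value after ± is the standard error of a log2 fold change unless SD is named. Levels per kilobase use exon lengths of GENCODE release M21. The procedure was also run on simulated data in which every group had the same spread for a gene. That simulation cannot speak for comparisons with the untreated pair, which was more variable. Alternatives were other filters, a pseudocount of 1 CPM, median centring, quantile normalization, limma's voom on the recovered reads, library weights, only the 2 groups compared, and each library left out.

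The members, the pathway list and the marker lists were chosen with earlier results of these data known. Beside the members, the text may name up to 4 called genes of each pathway role with the smallest p in a comparison, and for each member the 3 genes (5 for Inhbb) with the highest r and a mean of at least 1 log2 CPM, without predicted genes. A gene that this rule takes is not reported here.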

Additional observations from a re-analysis of the deposited data

How the results depend on the processing

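Of the 20 called results of the 6 tested genes, 7 kept their call under every alternative that could be run for them, and of the 40 uncalled results 26 stayed uncalled. The called results include those of Fst, which are not support for a difference because of the filter on low values. There were 19 alternatives, and 18 for Inhba and Fst, which the stricter filter of 2 log2 CPM leaves out. Weighting libraries by their spread around the group mean gave each untreated library a weight of 0.242. In groups of 2 libraries both got the same weight, so there it stands for the spread of the group and does not rate a single library. The weights left 0 pathway genes called in untreated against sham, rivaroxaban against untreated and dabigatran against untreated hearts and 1 in aPC against untreated hearts, against 20, 18, 18 and 23. Weighting raised the count to 6 in rivaroxaban against sham and 13 in aPC against sham hearts. Fitting only the 2 groups left 12, 0, 3 and 0 in the same first 4 comparisons and gave 9 in aPC against sham hearts, with fewer libraries for the spread. The cause was not tested.

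With single libraries left out, where a lone untreated library is assumed to vary like the other groups, the pathway counts ran from 4 to 29 (untreated against sham), 1 to 34 (rivaroxaban against untreated), 9 to 27 (dabigatran against untreated), 1 to 30 (aPC against untreated), 0 to 0 (rivaroxaban against sham), 6 to 32 (dabigatran against sham) and 0 to 5 (aPC against sham). No paired analysis was possible because the groups share no replicate number.

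Log2 fold changes that were uncalled with all libraries and turned their sign under an alternative spanned these ranges with single libraries left out, among them Fst in dabigatran against untreated and Tgfb1 in untreated against sham and in aPC against untreated hearts, which were called without untreated replicate 17. Inhba ran from -0.16 to 0.39 in aPC against untreated and from -0.39 to 0.16 in aPC against sham hearts. Fst ran from -1.50 to 0.20 in dabigatran against untreated, -0.50 to 0.0765 in rivaroxaban against sham, -0.14 to 0.20 in aPC against sham and -0.0487 to 0.53 in aPC against rivaroxaban hearts. Tgfb1 ran from -0.50 to 0.50 in untreated against sham, -0.63 to 0.36 in rivaroxaban against untreated, -0.28 to 0.71 in aPC against untreated and -0.27 to 0.0016 in rivaroxaban against sham hearts. Tgfb2 ran from -0.17 to 0.17 in rivaroxaban against sham and -0.34 to 0.0018 in aPC against rivaroxaban hearts. Tgfb3 ran from -0.31 to 0.0417 in dabigatran against sham, -0.0635 to 0.29 in dabigatran against rivaroxaban and -0.16 to 0.0251 in aPC against rivaroxaban hearts. Quantile normalization turned Inhba to 0.0453 in aPC against sham, Tgfb1 to -0.0215 in untreated against sham, Tgfb3 to 0.0291 in aPC against rivaroxaban and Tgfb2 to 0.0017 in rivaroxaban against sham hearts. Library weights turned Inhba to 0.0686, Tgfb1 to -0.000559 and Tgfb2 to 0.0801 in the same comparisons, and median centring and voom turned Tgfb2 to 0.0089 and 0.0152. The cause was not tested. A gene with few reads, such as Fst, has a fold change that is understated by the reads added before the log.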
